A study of Homo sapiens with 6 samples.

Results

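The potassium and calcium channel subunits were followed through all probe sets whose single gene symbol in the platform annotation starts with KCN or CACN. The rule selected 128 of the 22215 analysed probe sets, and they stand for 86 genes. Of these, 91 probe sets belong to 65 KCN genes and 37 belong to 21 CACN genes, and 2 probe sets are for the non-coding transcripts KCNQ1OT1 and KCNQ1DN. A further 3 probe sets that list a channel symbol together with other symbols were left out. The cells were NCI-H295A, 1 established line from a human adrenocortical carcinoma that makes steroid hormones. The 8-Br-cAMP group comprised 3 samples of cells kept for 18 h in medium with 1 mM 8-Br-cAMP, a cell-permeable analogue of the second messenger cyclic AMP. The control group comprised 3 samples of the same line kept without it, and both groups grew in RPMI medium with fetal calf serum at 2% and the additions insulin, selenium and gentamicin. Each sample was hybridised to 1 Affymetrix oligonucleotide array for human transcripts, on which a probe set is a group of short probes for 1 transcript. The labels number the samples 1 to 3 in each group and name plates, without saying whether a shared number means a shared culture or day, so each p-value below reflects the spread among these samples alone, and part of that spread may be technical.

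Potassium channels let potassium leave the cell and hold the membrane at a negative voltage, and voltage-gated calcium channels open when that voltage is lost and admit calcium. In the outer zone of the adrenal cortex, angiotensin and high plasma potassium depolarise the cells in this way and calcium entry drives aldosterone synthesis, while ACTH acts in the whole cortex largely through cyclic AMP and protein kinase A. A channel is built from pore-forming subunits, which carry the ion, and auxiliary subunits, which set how much of the pore protein reaches the membrane and how it gates.

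Signals are given as deposited, on a linear scale on which the trimmed mean of every array lay between 249.996 and 250.155. A probe set was kept for testing when its mean log2 signal over the 6 arrays exceeded the 40th percentile of all probe sets, a log2 signal of 5.51 (45.5 on the linear scale), and signals under that level are called background-like here. The 15 probe sets for bacterial transcripts, which human RNA should not light up, read between 0.5 and 26.1. The arrays of both number 1 samples differed from the others in the ratio of 3' to 5' signal of actin, which was 38.8 in 8-Br-cAMP sample 1 and 5.72 in control sample 1 and lay between 1.93 and 2.41 on the other 4 arrays. For GAPDH the ratio was 4.29 in 8-Br-cAMP sample 1 and 1.79 in control sample 1, against 1.05 to 1.17 on the other arrays. The part that RNA quality has in the channel results was not tested, and each main result is therefore given also without the number 1 arrays. All 9 adrenocortical markers were above the level on average, with summed signals of 18726.8 to 43859.7 in 8-Br-cAMP cells and 6356.3 to 22380 in control cells. Their log2 differences were positive except for MC2R (-0.65) and NR5A1 (-0.15). MC2R was under the level in 8-Br-cAMP samples 1 and 3, at 21.1 and 45. Of the markers of other cells, 1 of 5 for chromaffin and neural cells, 2 of 3 for endothelium, 1 of 4 for muscle and stroma and 0 of 2 for leukocytes were above it. The summed endothelial signal was 265 to 401.3 in 8-Br-cAMP cells and 90.6 to 150.8 in control cells. VWF, which makes up much of it in 8-Br-cAMP cells, read 224.5 to 292.3 there and 13.2 to 123.8 in control cells. PECAM1, the other endothelial marker above the level, read 29.2 to 104.6 in 8-Br-cAMP cells and 24.3 to 71.9 in control cells (log2 difference -0.02). CDH5 was background-like, at 1.6 to 4.4 in 8-Br-cAMP cells and 2.7 to 11.5 in control cells. The part of endothelial cells in the channel results was not tested. In bulk RNA, fewer cells with a transcript and less of it per cell cannot be told apart.

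Most channel probe sets were background-like. Of the 128, 36 probe sets of 30 genes were kept, 16 exceeded the level on all 6 arrays and 55 exceeded it on none. No array exceeded the highest bacterial signal for 31 of them. The mean log2 signal ran between 0.05 and 9.64. Just inside the level stood KCNH6 at 5.51, and just outside it stood CACNA2D2 at 5.39. By class, 3 of 10 probe sets for two-pore domain channels, which carry the background leak of potassium, were kept. The inward rectifiers, which pass potassium best near the resting voltage, had 7 of 20 kept, and the voltage-gated pore and modifier subunits had 6 of 25. The KCNQ and KCNH genes, for slowly gating voltage-dependent channels, had 3 of 10 kept, the calcium- or sodium-activated channels 2 of 7, and the auxiliary potassium subunits 4 of 17. Among calcium channels 6 of 20 probe sets for pore subunits and 5 of 17 for auxiliary subunits were kept. Both non-coding transcripts were background-like.

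**Figure D1:**
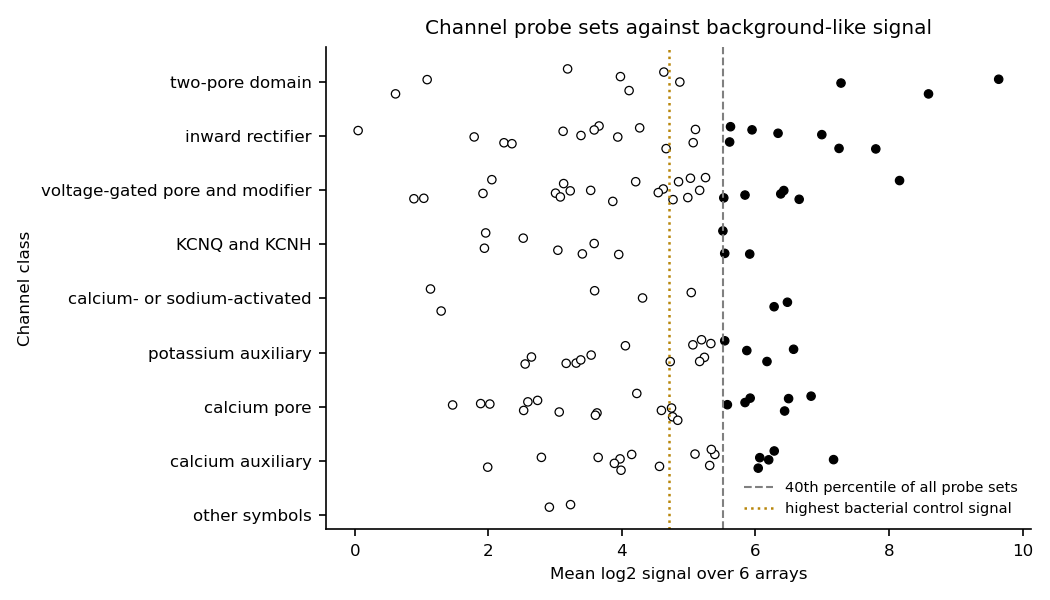
Mean log2 signal over the 6 arrays of all 128 channel probe sets, 1 point each, by channel class. Filled points are the 36 above the 40th percentile of all probe sets (dashed line, 5.51); the dotted line is the log2 of the highest bacterial control signal, 26.1.

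After 18 h of 8-Br-cAMP, channel transcripts differed from control cells in both directions. KCNK3, the acid-sensitive leak channel that helps to set the resting voltage of adrenocortical cells, was 4.53-fold higher in 8-Br-cAMP cells, while 1 probe set each of CACNB3 and CACNB2 was lower, with signals in 8-Br-cAMP cells mostly (CACNB3) or wholly (CACNB2) background-like. CACNB2 and CACNB3 encode cytoplasmic beta subunits that bring the calcium pore to the membrane and tune its gating. These 3 probe sets passed the test when the sample number was fitted as a block (the paired fit: limma with Benjamini-Hochberg adjustment over 13329 kept probe sets, adjusted p under 0.05). In the fit written as the main one, which has no block, none of the 36 passed, with 9 at an unadjusted p under 0.05. That fit called 0% of all kept probe sets, with 1474 at an unadjusted p under 0.05. In the paired fit 3.21% of all kept probe sets were called, 1.55% higher and 1.66% lower, and the 1 higher and 2 lower of 36 channel probe sets are to be read against those shares. CACNB2 and CACNB3 passed the filter through the control group, where they are high: their means in 8-Br-cAMP cells were 5.10 and 5.15, under the level, and with no filter the paired adjusted p was 0.0591 for CACNB2, 0.0408 for CACNB3 and 0.00557 for KCNK3.

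KCNK3 had signals of 2728.2, 1358.7 and 1325.5 in 8-Br-cAMP samples 1, 2 and 3, against 806.8, 251.8 and 261 in control samples 1, 2 and 3. Every 8-Br-cAMP array stood above every control array, and in each group sample 1 was the high one. The mean log2 signal was 10.73 ± 0.59 in 8-Br-cAMP cells and 8.55 ± 0.96 in control cells (SD, n = 3 each). The log2 difference was 2.18, with a standard error of 0.22 and a 95% interval of 1.66 to 2.70 in the paired fit (adjusted p = 0.0109). Without the block the interval was 0.93 to 3.42 and the adjusted p 0.187. By pair the differences were 1.76, 2.43 and 2.34, so each of the 3 pairs showed the rise at more than 2-fold. With both number 1 arrays left out it was 2.39 (limma adjusted p = 1.03e-05). The difference was 2.05 without both number 2 arrays and 2.09 without both number 3 arrays, but no kept probe set passed in either of those fits.

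CACNB3 had signals of 28.6, 46.9 and 33.5 in 8-Br-cAMP samples 1 to 3, against 130.8, 154.8 and 172.3 in control samples 1 to 3. All 3 control arrays were clear of the background-like level and only 8-Br-cAMP sample 2 was above it. The log2 difference was -2.09 (standard error 0.33, 95% interval -2.87 to -1.31, adjusted p = 0.0290 in the paired fit and 0.0948 without the block). As only 1 of the 3 arrays of 8-Br-cAMP cells measured it above the level, the 4.27-fold is not a firm size, and it was 3.30-fold with each array under the level raised to it. By pair it was -2.19, -1.72 and -2.36, and without the number 1 arrays it was -2.04 (adjusted p = 0.00178). The other CACNB3 probe set was background-like on average, with 55.9, 24.6 and 10.7 in 8-Br-cAMP cells and 42.8, 65.7 and 96.1 in control cells, and was not tested.

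CACNB2 read 38.6, 26.8 and 39.3 with 213714_at in 8-Br-cAMP samples 1 to 3, against 142.2, 134.1 and 115.9 in control samples 1 to 3. All 3 values in 8-Br-cAMP cells were background-like, so the measured difference of -1.92 on the log2 scale (3.79-fold) is given as a bound of at least 2.86-fold. Its adjusted p was 0.0435 in the paired fit, with a standard error of 0.35, and it did not pass without the block. Over the paired fits under all settings it was called in 2 of the 6 that kept it, with adjusted p between 0.0343 and 0.0617, whereas CACNB3 was called in 6 of 6 and KCNK3 in 7 of 7. Without the number 1 arrays it was at least 2.74-fold lower (adjusted p = 0.00476). A second probe set of the gene, 207776_s_at, read 95, 47.7 and 45.6 in 8-Br-cAMP cells and 96, 119.3 and 93.5 in control cells. Its difference was -0.79 with an adjusted p of 0.277 in the paired fit, and the first pair was nearly equal while the other pairs were lower with 8-Br-cAMP; without the number 1 arrays it passed at -1.18 (adjusted p = 0.0231). The third was background-like on 5 of 6 arrays and was not tested.

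**Figure D2:**
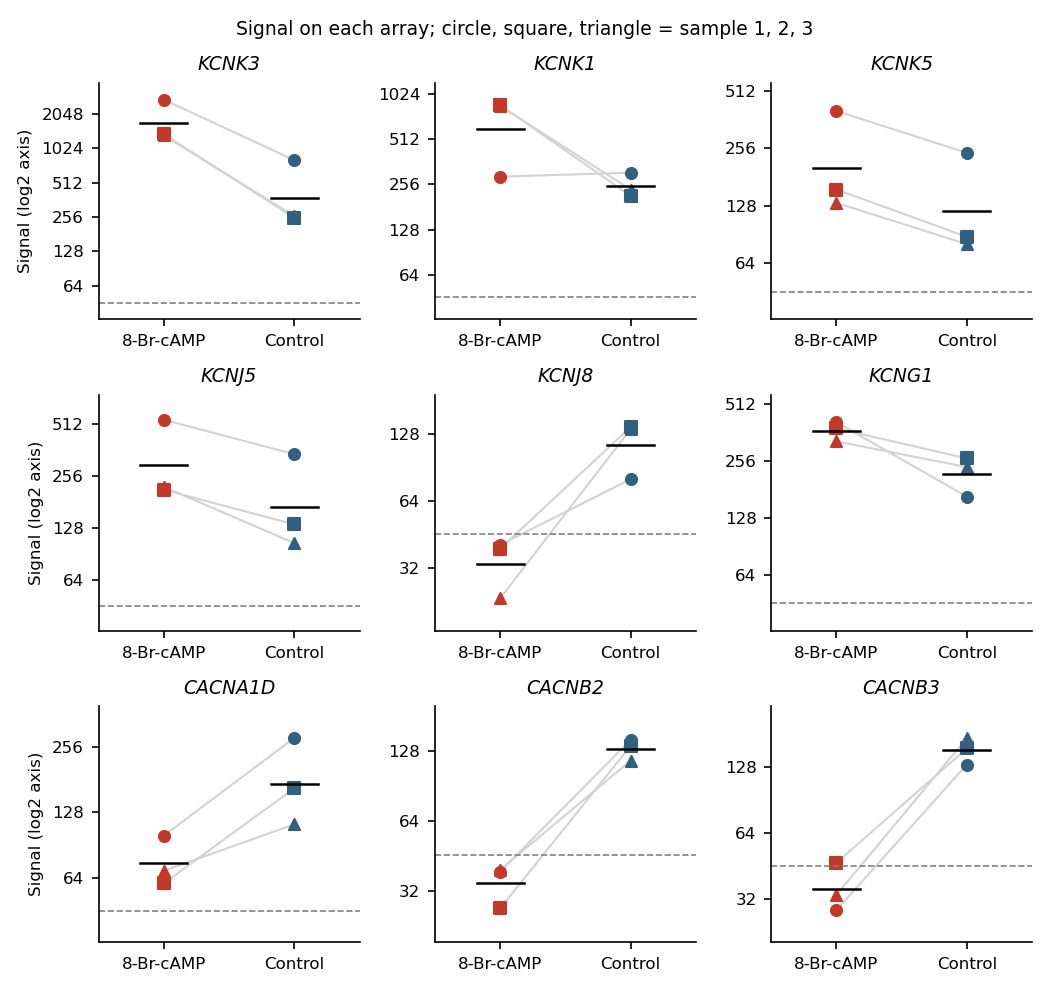
Signal on each array (log2 axis, linear signal values) for 9 probe sets, 8-Br-cAMP left and control right; circles, squares and triangles are samples 1, 2 and 3, grey lines join equal numbers, black bars are the mean of the log2 signals and the dashed line is the background-like level of 45.5. KCNK3 lies above its controls on every array, whereas CACNB2 and CACNB3 lie below theirs and near or under the level.

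The start regions of the 3 called genes are shown because 8-Br-cAMP acts largely through protein kinase A, whose target CREB is known to bind the cyclic AMP response element TGACGTCA or its core TGACG. The windows hold 250 bases before and 50 bases after an annotated start, from RefSeq on GRCh38.p14, and all 3 are on the plus strand. KCNK3 has 1 such window, chr2:26692472-26692771. CACNB3 has 3, of which chr12:48814230-48814529 is printed because it holds that core, and CACNB2 has 4, of which chr10:18340459-18340758 is printed because it is 1 of the 2 that hold it. Capitals mark TGACG, searched on both strands, and the sequences run 5′ to 3′.
KCNK3: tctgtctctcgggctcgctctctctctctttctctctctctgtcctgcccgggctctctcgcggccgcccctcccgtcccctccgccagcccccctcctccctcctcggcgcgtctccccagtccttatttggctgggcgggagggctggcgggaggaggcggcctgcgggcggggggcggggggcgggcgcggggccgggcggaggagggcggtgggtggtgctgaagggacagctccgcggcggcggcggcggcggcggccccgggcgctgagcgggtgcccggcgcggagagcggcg
CACNB3: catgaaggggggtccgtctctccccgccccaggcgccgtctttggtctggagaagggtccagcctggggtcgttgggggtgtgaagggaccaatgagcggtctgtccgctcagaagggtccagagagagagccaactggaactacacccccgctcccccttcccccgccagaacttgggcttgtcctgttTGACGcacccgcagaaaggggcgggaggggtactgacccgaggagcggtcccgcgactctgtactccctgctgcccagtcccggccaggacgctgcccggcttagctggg
CACNB2: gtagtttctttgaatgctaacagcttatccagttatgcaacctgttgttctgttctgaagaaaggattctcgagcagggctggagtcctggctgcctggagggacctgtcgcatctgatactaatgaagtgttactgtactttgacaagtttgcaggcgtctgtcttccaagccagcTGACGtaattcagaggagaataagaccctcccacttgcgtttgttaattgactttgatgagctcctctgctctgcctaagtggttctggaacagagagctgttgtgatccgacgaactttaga
The KCNK3 window holds neither the full element nor the core on either strand, and its G and C content is 78.7%. The core starts 60 bases before the start in the CACNB3 window and 73 bases before it in the CACNB2 window. The core is common: 24.6% of all 35116 windows hold 1, as do 17.3% of the 104 windows of 66 channel genes and 20.5% of the 39 windows of 22 genes with a kept probe set. The full element, which contains the core, was in 1.85% of all windows, in 0.962% of the channel windows and in 0 of the 39. The binding motifs CAAGGTCA of NR5A1 and AAAGGTCA of the NR4A receptors, both regulators of adrenal genes, were in 1.28% and 1.22% of all windows and in 0 of the 39. A match describes letters only, and which of a gene's starts these cells use was not tested.

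Beyond KCNK3, both other kept probe sets for two-pore channels had positive differences. The median log2 difference of the 3 kept was 1.25, against -0.13 over all kept probe sets. Probe sets of the class that were not kept, and so not tested, went both ways. Among them KCNK10 read 8.9, 16 and 20.4 in 8-Br-cAMP cells and 42.2, 77.2 and 24.2 in control cells. It was lower with no overlap and above the level on 1 array only. KCNK5, an alkaline-activated leak channel, had 401.1, 155.5 and 132.5 in 8-Br-cAMP samples 1 to 3 and 241.9, 88 and 80.5 in control samples 1 to 3. Each pair ran the same way although the groups overlapped, with sample 1 high in both. The difference was 0.76, with an adjusted p of 0.126 in the paired fit, and it passed only without the number 1 arrays (0.77, adjusted p = 0.0360). It was 0.26 without 8-Br-cAMP sample 1 alone and 1.26 without control sample 1 alone. KCNK1, a weakly conducting leak channel, was chosen for description after its values were seen. It read 288.3, 861.9 and 850 in 8-Br-cAMP samples 1 to 3 and 306.2, 215.2 and 236.7 in control samples 1 to 3. Samples 2 and 3 of the 8-Br-cAMP group stood well above all control arrays, and sample 1 was within their range. The pair differences were -0.09, 2.00 and 1.84, so the paired fit gave 1.25 with an adjusted p of 0.159, and without the number 1 arrays the value was 1.92 (adjusted p = 3.40e-05). Its other probe set was background-like on 4 of 6 arrays, with 4, 137.1 and 185.2 in 8-Br-cAMP cells and 33.9, 4.3 and 41.8 in control cells. KCNK2, the leak channel studied in bovine adrenocortical cells as a target of ACTH, was background-like on all arrays, at 15.1 to 30.7 in 8-Br-cAMP cells and 4.9 to 24.6 in control cells.

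Among the inward rectifiers, KCNJ5 and KCNJ8 had differences of opposite sign. KCNJ5 forms a G protein-gated channel that is recurrently mutated in aldosterone-producing adenomas, and it has 4 probe sets here. With 208404_x_at it read 542.4, 213.2 and 221.5 in 8-Br-cAMP samples 1 to 3 and 342.7, 134.4 and 104.7 in control samples 1 to 3. Every pair was higher with 8-Br-cAMP, but the groups overlapped because control sample 1 exceeded 8-Br-cAMP samples 2 and 3. The difference was 0.80 (paired adjusted p = 0.108). With 211304_x_at the difference was 0.57 (adjusted p = 0.252) and with 211817_s_at it was 1.29 (adjusted p = 0.377), and the last had a first pair of opposite sign, at 58.9 in 8-Br-cAMP cells and 117.3 in control cells. Without the number 1 arrays all 3 passed, the first 2 at 0.87 and 0.73 (adjusted p of 0.0127 and 0.0376) and the last at a bound of at least 1.92-fold higher, since its control samples 2 and 3 were background-like (adjusted p = 0.0107). With arrays left out in turn the differences were 0.36 (without 8-Br-cAMP sample 1) to 1.31 (without control sample 1), 0.41 (without both number 2 arrays) to 0.78 (without control sample 1) and 0.52 (without both number 3 arrays) to 2.43 (without both number 1 arrays). The fourth was background-like on 5 of 6 arrays. Probe sets whose names end in _x_at can match other sequences too, per the array maker's naming. KCNJ8, the pore of an ATP-sensitive potassium channel of vascular muscle, read 40.7, 39.1 and 23.4 with 205303_at in 8-Br-cAMP cells and 80.3, 137.8 and 134.8 in control cells. All 8-Br-cAMP values were background-like and all control values were above them, which gives at least 2.51-fold lower, but the adjusted p was 0.0767 in the paired fit and 0.178 without the block. Its second probe set, 205304_s_at, had no overlap between groups either, with 64.9, 33.3 and 4.3 in 8-Br-cAMP cells and 86.6, 127 and 142.2 in control cells (difference -2.46, paired adjusted p = 0.166). Only 1 of its 3 arrays of 8-Br-cAMP cells was above the level, and the value rests in part on the signal of 4.3 in 8-Br-cAMP sample 3, being -1.32 without that array and -1.17 without both number 3 arrays. Without the number 1 arrays both probe sets passed with background-like signals on both remaining arrays of 8-Br-cAMP cells, so they are given as at least 2.996-fold (adjusted p = 0.00354) and at least 2.95-fold lower (adjusted p = 0.0189). KCNJ14 had a difference of -0.16, and -0.51 without the number 1 arrays (adjusted p = 0.0831). KCNJ15 had a difference of 0.01 with its kept probe set. Its other probe set, background-like on all arrays and not tested, read 42.9, 17.1 and 26.2 in 8-Br-cAMP cells and 4.9, 13 and 3.3 in control cells, with no overlap.

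The voltage-gated class had a median difference of -0.73, and KCNG1 was the 1 member of 6 with a positive value. KCNG1, a modifier subunit that is silent alone and joins other voltage-gated subunits, read 412.2, 382.4 and 326.2 in 8-Br-cAMP samples 1 to 3 and 166.7, 265.1 and 238.7 in control samples 1 to 3. The groups did not overlap, but the difference of 0.76 had a paired adjusted p of 0.155, and it was 0.49 without the number 1 arrays (adjusted p = 0.0439). KCNS3, another silent modifier subunit, read 6, 43.9 and 50.5 in 8-Br-cAMP cells and 53, 152.1 and 89.1 in control cells. The groups were separate by a narrow margin, with 8-Br-cAMP sample 1 far below the rest (difference -1.92, paired adjusted p = 0.117), and the value without the number 1 arrays was -1.31 (adjusted p = 0.0244). Only 1 of the 3 arrays of 8-Br-cAMP cells was above the level, and the value was -0.93 without 8-Br-cAMP sample 1 alone and -2.47 without both number 3 arrays. KCND1, a pore subunit of fast transient potassium current, was chosen after its values were seen because its number 1 pair ran against the others. It read 81.5, 62.9 and 65.2 in 8-Br-cAMP samples 1 to 3, against 19.3, 236.7 and 217.5 in control samples 1 to 3. The pair differences were 2.08, -1.91 and -1.74, the paired difference -0.52 (adjusted p = 0.741) and the value without the number 1 arrays -1.83 (adjusted p = 0.000535). KCNA4, the fixed member of this class studied in adrenal cells, was background-like on 4 of 6 arrays.

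The 3 kept KCNQ and KCNH probe sets had a median difference of -1.003. KCNH6, of the ether-a-go-go family, read 90.5, 12.8 and 12.3 with 221023_s_at in 8-Br-cAMP samples 1 to 3, against 175.6, 71 and 50.9 in control samples 1 to 3. Each pair was lower with 8-Br-cAMP but the groups overlapped through sample 1 (difference -1.83, paired adjusted p = 0.0938). The signals of 8-Br-cAMP samples 2 and 3 were below the highest bacterial signal, so without the number 1 arrays the difference is given only as at least 1.32-fold lower (adjusted p = 0.0335), and it was -2.78 without 8-Br-cAMP sample 1 alone and -1.31 without control sample 1 alone. Both other KCNH6 probe sets were background-like on all arrays and differed in opposite directions from each other: 211045_s_at read 32.7, 14.7 and 17.8 in 8-Br-cAMP cells and 4.1, 6.4 and 13.3 in control cells, and 211046_at read 3.6, 1.2 and 2.6 in 8-Br-cAMP cells and 21.7, 6 and 24.6 in control cells. KCNH2, the best known member for its part in cardiac repolarisation, had a difference of -1.003 with 210036_s_at (paired adjusted p = 0.185). Its mean in 8-Br-cAMP cells was 5.41, under the level, and the fall was 1.45-fold with each array under the level raised to it. Without the number 1 arrays the difference was -1.02 (adjusted p = 0.277). Its other probe set was not kept and had pairs of mixed sign. KCNQ1, and KCNE1 which joins it in a channel complex, were background-like on all arrays, at 1.9 to 11.2 and 3.8 to 7.5 in 8-Br-cAMP cells and at 3.2 to 11.3 and 4.2 to 43.5 in control cells. Of the channels opened by calcium, KCNMA1, the large-conductance pore, had a difference of -0.56 (paired adjusted p = 0.431) with 221584_s_at. Its first pair ran the other way, at 126.7 in 8-Br-cAMP cells and 102.3 in control cells. KCNMA1 passed without the number 1 arrays (-0.99, adjusted p = 0.0336) and was -0.30 without 8-Br-cAMP sample 3 alone. Both its other probe sets were not kept. KCNN1, a small-conductance pore, had a difference of -0.70 (paired adjusted p = 0.395). It was -0.63 without the number 1 arrays, -0.27 without both number 2 arrays and -1.21 without both number 3 arrays. Of the auxiliary potassium subunits, KCNAB3, a beta subunit of voltage-gated channels, read 30.1, 65.8 and 57 in 8-Br-cAMP cells and 97.7, 116.2 and 109.9 in control cells. The groups did not overlap (difference -1.16, paired adjusted p = 0.127), and the value passed without the number 1 arrays at -0.88 (adjusted p = 0.0396). KCNMB4, which modifies the large-conductance channel, read 96.2, 72.9 and 66.9 in 8-Br-cAMP cells and 135.3, 110.5 and 105.2 in control cells, again with no overlap (difference -0.58, paired adjusted p = 0.276).

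Among calcium pore subunits, CACNA1D, an L-type channel that opens at relatively low voltage and is mutated in some aldosterone-producing adenomas, read 100.3, 60.6 and 69.2 with 210108_at in 8-Br-cAMP samples 1 to 3. The control values were 280.7, 165 and 112.8 in samples 1 to 3, all above the 8-Br-cAMP values. The difference was -1.21 (paired 95% interval -1.89 to -0.53, adjusted p = 0.0766), and without the number 1 arrays it was -1.08 (adjusted p = 0.0228). A second kept probe set, 207998_s_at, did not share it: it read 33.2, 56.8 and 46.6 in 8-Br-cAMP cells and 70.9, 34.4 and 55.8 in control cells, a difference of -0.21 (paired adjusted p = 0.844). CACNA1G, a T-type pore, read 172.8, 67.6 and 53.6 with 210380_s_at in 8-Br-cAMP cells and 208.8, 53.4 and 60.5 in control cells. The difference was -0.04 with a paired 95% interval of -0.76 to 0.68, and its 4 other probe sets were not kept. CACNA1H, the T-type pore tied to aldosterone secretion, was background-like on all arrays, at 14.5, 34.2 and 23.7 in 8-Br-cAMP cells and 6.8, 4.8 and 8.4 in control cells. CACNA1C, the main cardiac L-type pore, was likewise background-like on all arrays with both its probe sets. KCNK9, KCNJ3 and KCNE3, which have described adrenal or epithelial roles, were not analysed here. Among auxiliary subunits, CACNG4, better known as a partner of glutamate receptors, read 101.4, 252.2 and 293.7 with 62987_r_at in 8-Br-cAMP cells and 60.7, 101.5 and 192.4 in control cells. Each pair was higher with 8-Br-cAMP (difference 0.89, paired adjusted p = 0.121), and without the number 1 arrays it was 0.96 (adjusted p = 0.0370). It was 0.49 without control sample 1 alone and 1.36 without 8-Br-cAMP sample 1 alone. The other CACNG4 probe set was background-like on all arrays, at 5.4 to 16.2 in 8-Br-cAMP cells and 3.9 to 6.2 in control cells, with pairs of mixed sign.

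**Figure D3:**
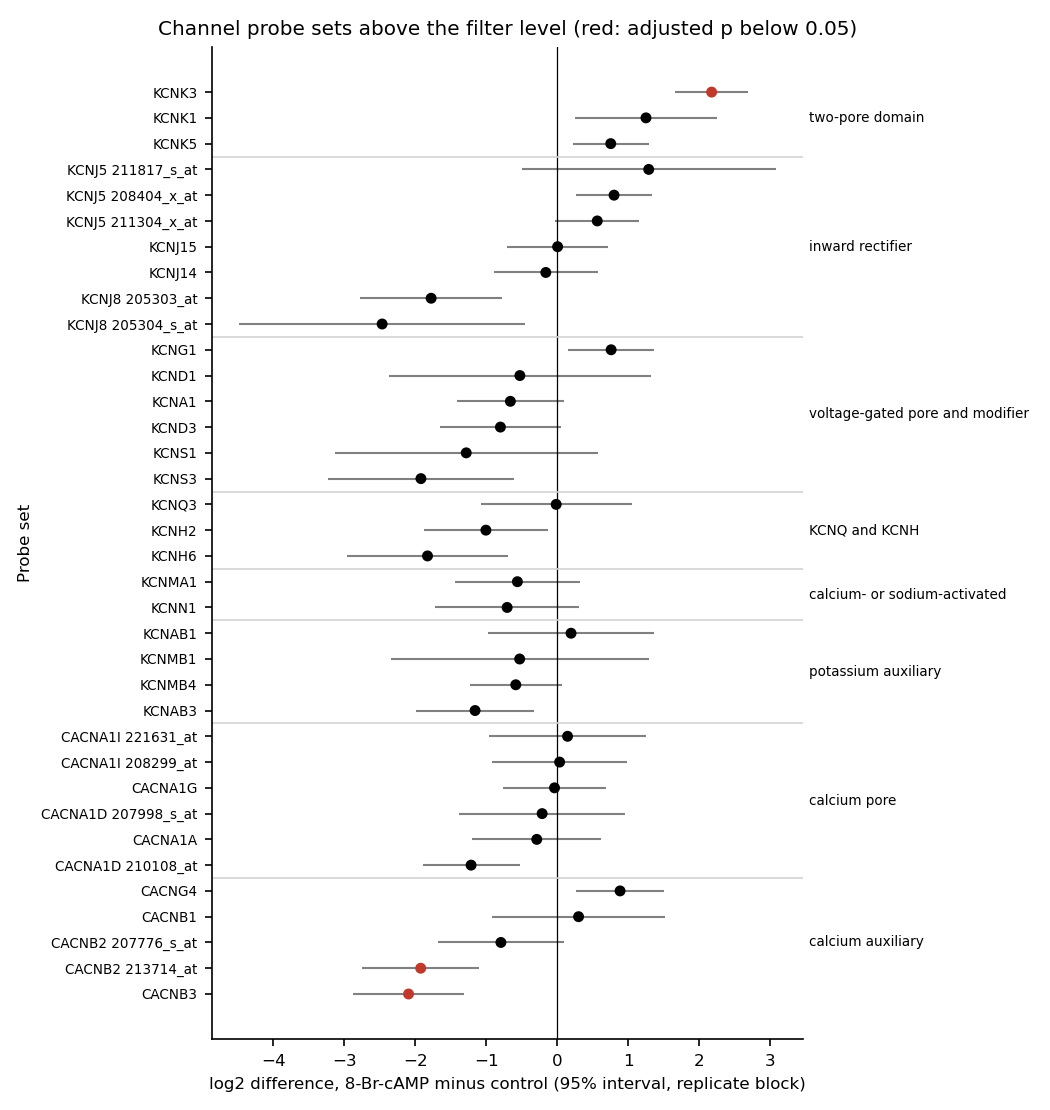
log2 difference (8-Br-cAMP minus control) of the 36 kept channel probe sets by class, with 95% intervals of the paired limma fit; red points passed at adjusted p under 0.05. KCNK3 lies at 2.18, and 1 probe set each of CACNB2 and CACNB3 at -1.92 and -2.09.

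Over the 36 kept probe sets, 13 differences were positive and 23 negative, with a median of -0.41 on the log2 scale, beside 5197 positive and 8132 negative with a median of -0.13 over all kept probe sets. Of the 36, 10 had a mean above the level in control cells alone and 1 in 8-Br-cAMP cells alone, so the filter itself took in members that are low in 1 group, and the counts are a description of the probe sets kept. By pair the channel medians were -0.11, -0.59 and -0.37, against -0.03, -0.18 and -0.15 over all kept probe sets. This median depended on the scaling and the filter: it was -0.02 after quantile normalization, where 17 of 35 were positive, -0.24 with the array medians aligned, where 16 of 36 were positive, and 0.80 over the 7 channel probe sets above the 60th percentile, all positive. Over all kept probe sets the median was -0.03 after quantile normalization and 0.03 with the medians aligned. KCNK3 and CACNB3 were called in the paired fit under both scalings. Of the 36, 2 were higher and 8 lower with no overlap between groups, against 6.02% and 12.5% of all kept probe sets. With the same sign in all 3 pairs there were 6 higher and 12 lower, against 15.3% and 28.9%. The selection that the series' design text describes, which asks for a 2-fold difference and an unadjusted p under 0.05, took 8 channel probe sets, 2 higher and 6 lower, where it took 6.6% of all. They were KCNK3 and KCNK1, higher, and CACNB2, CACNB3, CACNA1D, KCNAB3 and both probe sets of KCNJ8, lower.

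Without the number 1 arrays, a fit on 2 samples per group, 19 of the 36 passed, 8 higher and 11 lower, where 30.8% of all kept probe sets did, 12.1% higher and 18.7% lower. The 8 higher ones were the 3 of two-pore channels, the 3 of KCNJ5, KCNG1 and CACNG4. The 11 lower ones were 2 each of CACNB2 and KCNJ8 and 1 each of CACNB3, CACNA1D, KCNAB3, KCND1, KCNH6, KCNMA1 and KCNS3. Of these, CACNB3, KCNH6, KCNS3, both of KCNJ8 and 213714_at of CACNB2 had means above the level in control cells alone. Among the higher ones, 211817_s_at of KCNJ5 had its mean above the level in 8-Br-cAMP cells alone. Such members entered the test through the group where they are high, so the counts describe the probe sets kept. With 8-Br-cAMP sample 1 alone left out, and no block, CACNB2, CACNB3 and KCNK1 passed, and no channel probe set passed without any other single array. Without both number 2 arrays, or without both number 3 arrays, 0 channel probe sets and 0 of all kept probe sets passed.

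**Figure D4:**
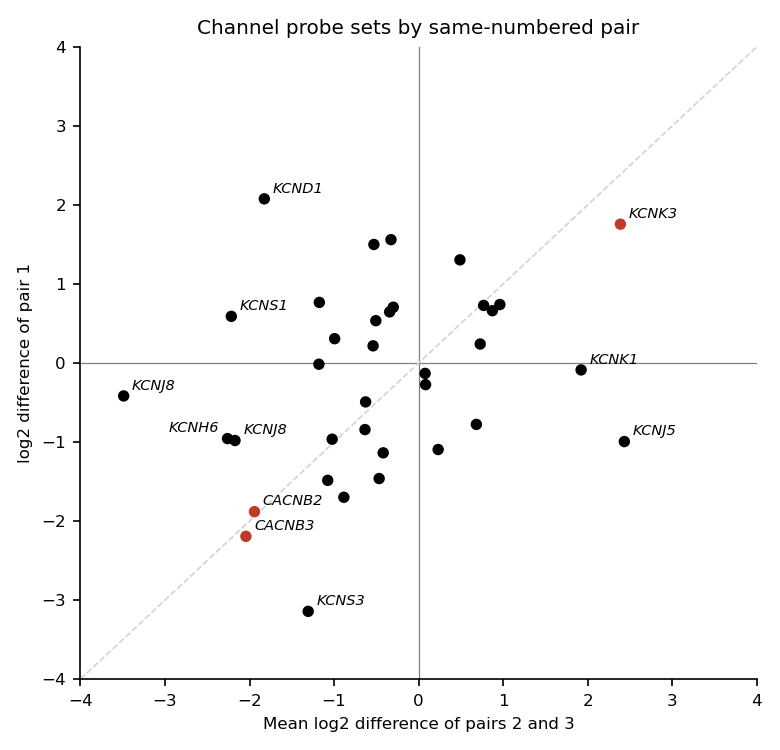
Difference of pair 1 (y axis) against the mean difference of pairs 2 and 3 (x axis), log2, 8-Br-cAMP minus control, for the 36 kept channel probe sets; the dashed line marks equal values and red points passed in the paired fit. KCNK3, CACNB2 and CACNB3 lie near the line, whereas KCND1 (pair 1 at 2.08) and KCNK1 (pair 1 at -0.09) lie far from it.

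Genes of the sodium pump, calcium pumps, calcium release and calmodulin signalling, which act on the same ions, had a median difference of -0.07. The list held 42 genes, of which 30 had a single-symbol probe set and 20 were kept, each by 1 probe set. None passed with or without the block, the smallest paired adjusted p being 0.111 for PPP3CB, a calcineurin catalytic subunit with a difference of -1.01, where 3.68% of the 7927 genes kept passed in the paired fit. Without the number 1 arrays 7 passed, 4 higher and 3 lower, where 33.3% of genes did. The higher ones were ATP1B1, the beta subunit of the sodium pump (1.48), ATP2A2 and ATP2B1, calcium pumps of the endoplasmic reticulum and the plasma membrane (0.63 and 0.83), and ITPR2, a calcium release channel (0.63). The lower ones were CAMKK2, a calmodulin-dependent kinase kinase (-0.61), ORAI2, a store-operated calcium channel (-0.86), and PPP3CB (-1.11). In the number 1 pair all 4 higher genes had negative differences: ATP1B1 -0.85, ITPR2 -0.34, ATP2A2 -0.05 and ATP2B1 -0.02. CAMKK2 (0.06) and ORAI2 (0.25) were positive in that pair, and only PPP3CB kept its sign (-0.81). With no array left out the differences were 0.71 for ATP1B1, 0.40 for ATP2A2, 0.55 for ATP2B1 and 0.31 for ITPR2. They were -0.39 for CAMKK2 and -0.49 for ORAI2. AGTR1, the angiotensin receptor, was not kept, at 22.3 to 46.6 in 8-Br-cAMP cells and 23.5 to 50.4 in control cells.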

How the data were processed

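RNA of 6 samples was measured, 1 array each. The deposited values are signal intensities per probe set on a linear scale, which the authors made with GCOS 1.3, per the submitters' processing notes. The file held 22277 probe sets, of which 62 array controls were left out. Depth does not apply to arrays, and the number of arrays limits the precision. Symbols came from the platform annotation: 19064 probe sets had 1 symbol, 1043 several and 2108 were not listed. All 128 members matched the RefSeq gene table, with 0 symbols changed. Log2 of the deposited signal was computed with no pseudocount and tested with limma 3.58.1 in R 4.3.3 (lmFit, eBayes with an intensity trend, two-sided), fitted on the 13329 probe sets above the 40th percentile and adjusted by Benjamini-Hochberg over all of them. The steps were run on simulated data in which same-numbered samples shared an effect, so that run cannot show whether the real samples are paired. No array was averaged or imputed, and detection calls were not used here.

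The fit written as the main one has no block, and the paired fit adds the sample number as a block. Same-numbered samples deviated together from their group means, with correlations of 0.603, 0.378 and 0.538, all over the limit of 0.1, and on that ground the paired fit is read beside the other. No label states such a pairing. Sample 2 of the 8-Br-cAMP group correlated better with control sample 3 (0.547) than with control sample 2 (0.378), and 8-Br-cAMP sample 3 had 0.312 with control sample 2. The check thus sets number 1 apart from numbers 2 and 3, and it cannot show that samples 2 and 3 are paired by number.

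Genes were named by rule: those called and the smallest paired p in each class. The rule also took the 5 largest rises and falls with 1 sign in all pairs, and a set with known adrenal roles. KCNK1, KCNK10, KCND1, KCNH2, KCNMB4, KCNJ14 and KCNJ15 were added after their values were seen. The members, lists and rules were chosen with earlier results of these data known. Alternatives were quantile normalization, a common median, no filter, the 60th percentile filter, a pseudocount of 16, no intensity trend, each array left out, each number left out, the block, and a 2-fold selection.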

Additional observations from a re-analysis of the deposited data

How the results depend on the processing

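With the replicate block, 428 of all kept probe sets and 3 channel probe sets were called, against 0 and 0 without it. The blocked fit called 337 and 2 after quantile normalization, 391 and 2 after alignment of medians, 406 and 2 with no filter, 440 and 1 above the 60th percentile, 548 and 3 with the pseudocount, and 81 and 2 without the intensity trend. The split of all blocked calls was 207 higher and 221 lower as deposited, 184 and 153 after quantile normalization, and 268 and 123 after alignment of medians. Without the block, 17 of all were called after quantile normalization, 19 after alignment of medians, 18 above the 60th percentile and 28 with the pseudocount, and the 2-fold selection took 880 of all and 8 channel probe sets. Leaving out arrays gave 0 to 4103 calls over all and 0 to 19 for channels: the highest counts are those without both number 1 arrays, while 8-Br-cAMP sample 1 left out gave 285 and 3, and control sample 1 left out gave 58 over all. For the ion-handling list the range was 0 to 7 calls. The channel median was -0.0189 after quantile normalization and 0.80 above the 60th percentile, and ran between -0.59 and -0.14 with arrays left out. CACNA1D turned to 0.0112 with 207998_s_at after quantile normalization, with or without the replicate block, and ran between -0.68 and 0.23 with arrays left out. CACNA1G turned to 0.24 after quantile normalization and 0.12 after alignment of medians, in both fits, and ran between -0.54 and 0.59 with arrays left out. The cause of these changes was not tested. Signals near 45.5 limit how far falls of CACNB2, CACNB3 and KCNJ8 can be sized.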

Other observations

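Ion channel genes outside the KCN and CACN families were looked at after values had been seen: chloride channels, epithelial and voltage-gated sodium channels and related families, with 94 probe sets for 63 genes, of which 31 for 20 genes were kept. In the paired fit 0 were higher and 3 lower, beside 1.55% and 1.66% of all kept probe sets, and without the number 1 arrays 1 was higher and 7 were lower, beside 12.1% and 18.7%. CLCN4, an intracellular exchanger of chloride and protons, read 36.4, 78 and 74.8 with 214769_at in 8-Br-cAMP samples 1 to 3, against 166.4, 405.8 and 458.1 in control samples 1 to 3. All 8-Br-cAMP values lay below all control values (log2 difference -2.40, paired adjusted p = 0.0109 by limma), and a second CLCN4 probe set, 205148_s_at, had a difference of -2.11 (adjusted p = 0.0438), while the other kept one missed the threshold at -1.49 (adjusted p = 0.0697). SCN3B, an auxiliary subunit of voltage-gated sodium channels, read 122.7, 39.4 and 44.7 with 204723_at in 8-Br-cAMP cells and 288, 173.1 and 154.8 in control cells. Each 8-Br-cAMP array lay below every control array (difference -1.72, adjusted p = 0.0368), with 1 of 3 above the background-like level. The other kept probe set of the gene, 204722_at, read 197.3, 15.3 and 12.6 in 8-Br-cAMP samples 1 to 3. Its control values were 372, 231.5 and 201.8 (difference -2.95, adjusted p = 0.0584). Its 8-Br-cAMP samples 2 and 3 were below the highest bacterial signal of 26.1, so that difference is not a firm size. None of the 3 called probe sets passed without the block, where the adjusted p ran between 0.141 and 0.269.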
